A study of Mus musculus with 4 samples.

Results

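Lymphoid lineage transcription factor genes, 10 in number, were followed in stem and progenitor cells of mouse bone marrow: Ikzf1, Ikzf2, Ikzf3, Runx3, Bcl11a, Bcl11b, Ebf1, Pax5, Tcf7 and Lef1. Members were all probe sets of the array whose only annotated symbol is 1 of these 10 names, and 9 of the 10 genes had such a probe set, each exactly 1, among 19938 genes on 28939 probe sets. Tcf7 was not analysed here. The cells were KLS cells, sorted as negative for mature lineage markers (Lin-) and positive for the surface proteins c-Kit and Sca-1, where stem cells and early progenitors are found. The first group was Klf7-/- on a C57Bl/6 background (2 arrays), without the Kruppel-like zinc finger factor gene Klf7, and the second was Klf7+/+ on the same background (2 arrays). Both came from chimeric mice made with fetal liver cells, whose marrow carried cells of the 2 genotypes together. The labels give neither the number of mice or donor embryos behind an array nor the age, and they do not say which part of Klf7 is missing, so p-values rest on a spread among samples that may be technical only.

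Lymphoid fate is set by a small group of DNA-binding factors acting in steps. Ikaros family zinc finger proteins (Ikzf genes) begin to open lymphoid genes in multipotent progenitors. Ebf1 and then Pax5 specify and commit B cells, while Tcf7, Lef1 and Bcl11b act downstream of Notch signalling in early T cells, Runx3 acts in cytotoxic T cells and Bcl11a is needed for early lymphoid and B cell development. In mouse KLS cells some of these genes are transcribed before any lineage choice is made.

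Kruppel-like factors are known to bind CACCC and GC boxes, so 3 strings of letters were sought on both strands in the 250 bases before each annotated start in RefSeq (GRCm38.p6). The first was CACCC, which reads GGGTG on the other strand. The second was the longer CCCCACCC, which contains the first. The third was GGGCGG, which reads CCGCCC on the other strand. Windows were given for 8 of the 10 members, 15 in all, and Ikzf2 and Ikzf3 had none in the table used. CACCC was present in 15 of 15 windows, against 52.01% of 32851 windows of all genes. Member windows were richer in G and C, at a median of 62.0% against 52.4%, and among all windows with at least that content 65.91% held CACCC. At least 1 match of GGGCGG was found in 9 of the 15 windows, against 32.74% of all, and CCCCACCC in 6, against 9.053% of all. Member windows themselves ran from 40.0% to 82.0% G and C, so that share is not one among windows of like content. For GGGCGG and CCCCACCC no such share was computed. The part of base content was not tested for any of the 3 strings. Windows of 1 gene are not independent, since 2 of the 4 Lef1 windows overlap, and a match of letters is not a binding site. Whether matches of letters go with the array values was not tested. Shown are the 4 windows that lie wholly before the annotated gene. These belong to Runx3, Ebf1 and Lef1, whose groups of arrays did not overlap, and to Pax5, whose groups did. They are Runx3 at chr4:135120395-135120644 (plus strand), Ebf1 at chr11:44617850-44618099 (plus strand), Pax5 at chr4:44710695-44710944 (minus strand) and Lef1 at chr3:131110047-131110296 (plus strand), each written 5′ to 3′ with every match of the first string and the third, on either strand, in capitals.
Runx3: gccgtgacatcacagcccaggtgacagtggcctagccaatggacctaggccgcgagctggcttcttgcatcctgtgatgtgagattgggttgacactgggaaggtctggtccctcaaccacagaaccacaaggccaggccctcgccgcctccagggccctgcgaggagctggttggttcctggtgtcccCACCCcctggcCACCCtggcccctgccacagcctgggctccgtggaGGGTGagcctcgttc
Ebf1: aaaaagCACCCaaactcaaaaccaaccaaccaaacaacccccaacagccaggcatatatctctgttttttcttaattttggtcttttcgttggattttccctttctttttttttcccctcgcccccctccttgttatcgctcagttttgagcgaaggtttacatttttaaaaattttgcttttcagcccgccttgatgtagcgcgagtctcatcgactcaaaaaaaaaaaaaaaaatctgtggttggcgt
Pax5: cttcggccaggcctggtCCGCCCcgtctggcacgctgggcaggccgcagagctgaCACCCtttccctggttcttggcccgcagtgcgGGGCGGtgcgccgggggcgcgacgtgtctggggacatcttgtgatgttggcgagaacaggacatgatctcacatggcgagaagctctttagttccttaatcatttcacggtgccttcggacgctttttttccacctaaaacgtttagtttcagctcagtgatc
Lef1: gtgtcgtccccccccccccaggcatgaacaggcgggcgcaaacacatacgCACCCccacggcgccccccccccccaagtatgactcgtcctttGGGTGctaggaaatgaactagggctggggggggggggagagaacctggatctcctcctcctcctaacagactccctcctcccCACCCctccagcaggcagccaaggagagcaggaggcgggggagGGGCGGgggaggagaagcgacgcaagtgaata
The Runx3 window held 3 matches of CACCC, the Ebf1 window 1, the Pax5 window 1 and the Lef1 window 3. Matches of GGGCGG numbered 2 in the Pax5 window and 1 in the Lef1 window, with none in those of Runx3 and Ebf1.

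No lymphoid factor passed the test between knockout and wild type. Bcl11a, Ebf1 and Lef1 read higher in both knockout arrays than in both wild-type arrays, Runx3, Ikzf2 and Bcl11b read lower, and Ikzf1, Ikzf3 and Pax5 overlapped. The largest difference was that of Runx3, at -0.63 ± 0.18 on the log2 scale (moderated SE, n = 2 per group), a knockout level of 0.644 of the wild-type level. In limma, 0 of 9 members had an adjusted p under 0.05, against 0.00502% of all genes, and 1 of 9, Runx3, had an unadjusted p under 0.05, against 4.81% of all genes. Groups without overlap were seen in 6 of 9 members, against 33.2% of all genes. In the direction of higher knockout signal these were 3 members, against 14.5% of genes, and in the direction of lower knockout signal also 3, against 18.6% of genes. Of the 9, 4 had a difference above 0, against 45% of genes, and the median difference was -0.044, against -0.026 over all genes. All adjusted p-values of members lay between 0.945 and 1. With 2 arrays in each group, an exact two-sided permutation test of a single gene cannot give a p below 0.333.

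**Figure D1:**
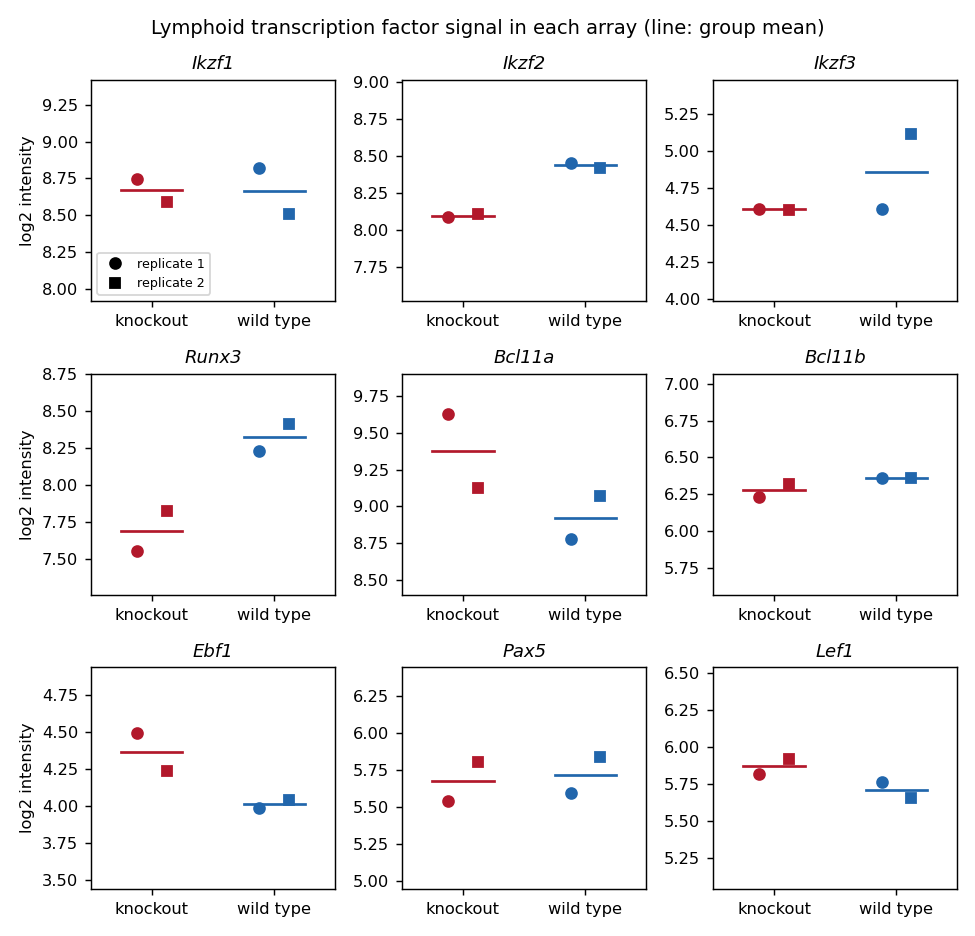
Log2 intensity of the 9 measured factors in each array, with knockout on the left, wild type on the right and the group mean as a line; each panel spans 1.5 log2 units. Ikzf2, Runx3 and Bcl11b have both knockout points under both wild-type points, and Bcl11a, Ebf1 and Lef1 have them above.

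The Ikaros family gave unlike differences, none past the threshold. Ikzf1, encoding Ikaros, the founding member needed for lymphoid development, read 8.75 and 8.59 in the knockout arrays, against 8.82 and 8.51 in the wild-type arrays (log2 intensity, as all levels below). Its wild-type arrays enclosed both knockout arrays, and the difference was 0.0035 ± 0.19 with a 95% confidence interval of -0.49 to 0.50. Of all genes, 98.5% had an absolute difference at least as large.

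Ikzf2 encodes Helios, which is transcribed in stem cells and in regulatory T cells. It read 8.09 and 8.11 in knockout, against 8.45 and 8.42 in wild type, so both knockout arrays lay below both wild-type arrays with a gap of 0.31 between the groups. Replicates differed by 0.021 in knockout and 0.032 in wild type, far less than the median replicate gaps of all genes, 0.21 in knockout and 0.23 in wild type. The difference was -0.34 ± 0.15 (95% confidence interval -0.74 to 0.059; limma adjusted p = 0.945). It stayed between -0.35 and -0.32 whichever array was left out. Still, 20.4% of all genes had an absolute difference at least as large, and 8.09% an unadjusted p at least as small.

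Ikzf3, encoding Aiolos, a factor of maturing B cells, gave dim signal, with 4.605 and 4.602 in knockout against 4.605 and 5.11 in wild type. Wild-type replicate 2 stood alone and the other 3 arrays were alike: knockout replicate 1 and wild-type replicate 1 carried the same deposited value, as 62 of the 28939 probe sets did for that pair of arrays. The difference of -0.26 ± 0.22 (95% confidence interval -0.85 to 0.34) stood at -0.0012 without wild-type replicate 2. Its mean level lay under 4.92, the lower quartile of all gene levels.

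Runx3, a Runt domain factor that silences Cd4 in cytotoxic T cells, read 7.55 and 7.82 in knockout, against 8.23 and 8.41 in wild type. Both knockout arrays were lower than both wild-type arrays, by at least 0.41, while replicates differed by 0.27 in knockout and 0.18 in wild type. In linear intensity the arrays gave 188 and 226 in knockout, against 300.1 and 340.0 in wild type. The 95% confidence interval of the difference, -1.12 to -0.15, was the only one of the 9 that did not include 0, and it is not adjusted for the number of genes tested. After adjustment over all probe sets the limma p was 0.945, against 0.0207 unadjusted. A difference at least as large in size was shown by 5.44% of all genes and an unadjusted p at least as small by 1.93%. Without each array in turn the difference ran from -0.77 to -0.50. In bulk RNA of sorted cells, fewer cells with the transcript and less transcript per cell cannot be told apart.

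Since Runx3 is also transcribed in mature T and NK cells, their markers were set beside it. The summed intensity of 12 such markers was 692 and 751 in knockout, against 620 and 814 in wild type, so the groups overlapped, and 2 of the 12 were higher and 10 lower in knockout. Nkg7, a granule protein gene of NK and cytotoxic T cells, made up 34.95% to 48.4% of these sums, and without it the other 11 summed to 381 and 388 in knockout, against 403 and 436 in wild type. That sum, chosen after the values were seen, did not overlap and was lower in knockout, as Runx3 was; its part in the Runx3 value was not tested. Cd3e, a subunit of the T cell receptor complex, read 5.85 and 5.94 in knockout, against 5.98 and 6.01 in wild type. An intensity table has no true zero, and 3 of the 12 had a mean under the lower quartile of gene levels.

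The BCL11 pair of zinc finger repressors had differences of opposite sign, neither past the threshold. Bcl11a, which acts in lymphoid progenitors, B cell development and globin silencing, read 9.63 and 9.13 in knockout, against 8.78 and 9.07 in wild type. Knockout replicate 1 was the high array, and knockout replicate 2 exceeded wild-type replicate 2 by 0.058. Its difference was 0.45 ± 0.24 (95% confidence interval -0.18 to 1.09; limma adjusted p = 0.949), with 0.20 left when knockout replicate 1 was removed and 0.70 when knockout replicate 2 was removed. Bcl11b, the factor of T cell commitment, read 6.23 and 6.32 in knockout, against 6.36 and 6.36 in wild type. Although its arrays did not overlap, the gap was 0.036, and the difference was -0.081 ± 0.15 (95% confidence interval -0.48 to 0.32), or -0.037 without knockout replicate 1 and -0.13 without knockout replicate 2. Whether the 2 differences differ from each other was not tested.

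Of the B cell pair, Ebf1 was higher in knockout without overlap and Pax5 overlapped. Ebf1 initiates the B cell programme and read 4.49 and 4.24 in knockout, against 3.99 and 4.04 in wild type. Every array was dim, and the linear intensities were 22.5 and 18.9 in knockout, against 15.8 and 16.5 in wild type. The difference was 0.35 ± 0.17 (95% confidence interval -0.10 to 0.81; limma adjusted p = 0.949), and it stood at 0.23 without knockout replicate 1. An offset of 32 added to the intensity, which damps dim probe sets, brought it to 0.13. Pax5, which commits cells to the B lineage once Ebf1 is present, read 5.54 and 5.81 in knockout, against 5.59 and 5.84 in wild type. In both groups replicate 2 was the higher array, by 0.27 in knockout and 0.25 in wild type, and the difference of -0.044 ± 0.19 (95% confidence interval -0.55 to 0.46) was smaller than either gap.

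Markers of mature B cells were set beside Ebf1. The summed intensity of 7 of them was 457 and 392 in knockout, against 377 and 363 in wild type, without overlap. That separation rested on 1 gene. Cd37, a tetraspanin gene that many leukocytes transcribe, read 7.97 and 7.86 in knockout, against 7.47 and 7.43 in wild type, and was the 1 marker of the 7 without overlap, against 33.2% of all genes. Without Cd37, a choice made after the values were seen, the other 6 summed to 206 and 160 in knockout, against 199.9 and 191 in wild type, and overlapped. They divided into 2 higher and 4 lower, and 4 of the 7 had a mean under the lower quartile of gene levels. The part of such cells in the Ebf1 value was not tested.

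Lef1, an HMG box factor that binds beta-catenin and acts in early T and pro-B cells, read 5.82 and 5.92 in knockout, against 5.76 and 5.65 in wild type. Both knockout arrays were the higher ones, by at least 0.056, which is less than the replicate gaps of 0.10 in knockout and 0.11 in wild type. The difference was 0.16 ± 0.16 (95% confidence interval -0.26 to 0.58; limma adjusted p = 0.962), and it was 0.11 without wild-type replicate 2.

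**Figure D2:**
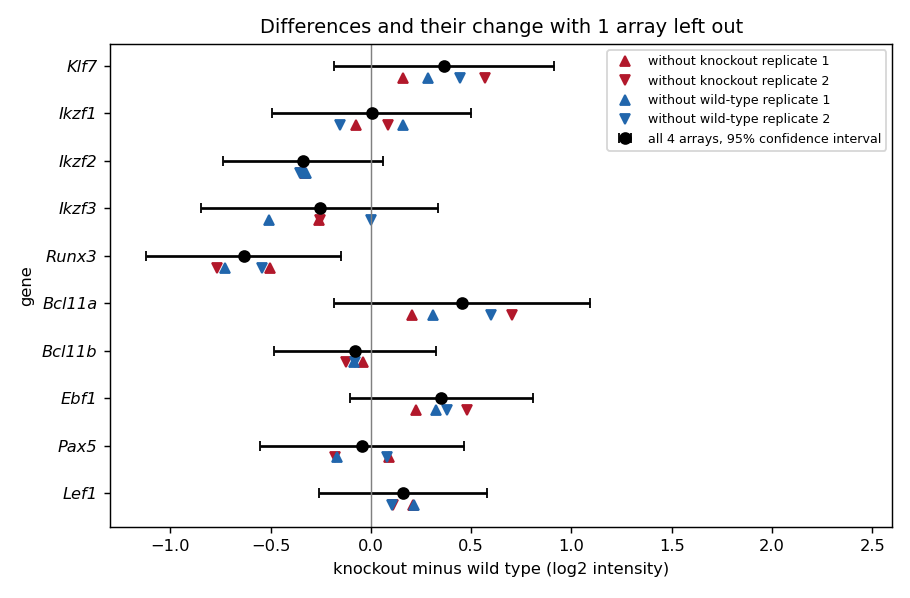
Difference of knockout minus wild type in log2 intensity for Klf7 and the 9 factors, as black points with 95% confidence intervals from limma; triangles below give the difference with 1 array left out. Runx3 alone of the 9 has an interval clear of 0 (-1.12 to -0.15), and the triangles of Ikzf1 and Pax5 fall on both sides of 0.

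Differences were also read against genes of like signal, in 20 bins of mean intensity with 996 or 997 genes each. Runx3, at -0.63, lay below the 5th percentile of its bin (-0.58), and Ebf1, at 0.35, lay above the 95th percentile of its bin (0.31). The other 7 members were between these percentiles, where 10% of genes lie outside by construction. Ikzf2, in the same bin as Runx3, lay below that bin's lower quartile of -0.21 and above its 5th percentile. Bcl11a was close to the upper edge, at 0.45 against a 95th percentile of 0.48.

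**Figure D3:**
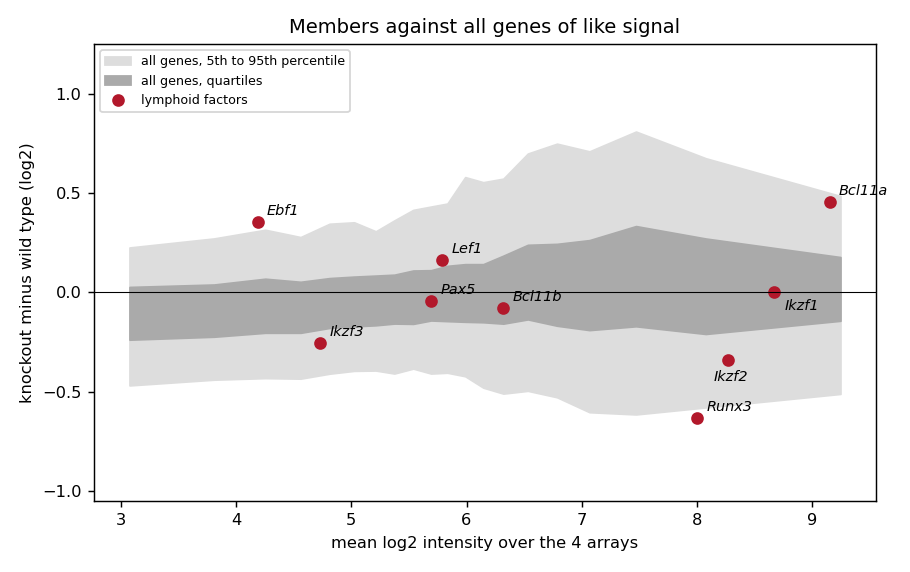
Difference of knockout minus wild type (log2) against mean log2 intensity over the 4 arrays for the 9 factors, over bands that join the quartiles and the 5th and 95th percentiles of all genes in 20 bins of signal. Runx3 lies under the lower band edge and Ebf1 over the upper one.

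Chromosomal position was not used in choosing the members. RefSeq (GRCm38.p6) places 5 of the 10 on chromosome 11 (Ikzf1, Ikzf3, Bcl11a, Ebf1 and Tcf7), which carries 7.87% of the genes measured. The 4 of these with a probe set had differences of both signs, at 0.0035, -0.26, 0.45 and 0.35, and all genes of chromosome 11 had a median difference of -0.015. Ikzf2 and Klf7 are both on chromosome 1, at 69531207-69687351 and 64029448-64122345. All genes of chromosome 1 had a median difference of -0.011. For Ikzf2, the loss of Klf7 and any difference in sequence that travels with the Klf7 allele cannot be told apart. None of the 10 is on a sex chromosome. Of 6 sex-linked transcripts, 4 split the arrays along the line of genotype. Xist, from the inactive X chromosome, read 11.76 and 11.58 in knockout, against 5.24 and 4.80 in wild type. Y-linked Eif2s3y, Uty and Kdm5d differed by -4.58, -2.88 and -1.63, while Usp9y and Zfy1 overlapped. The last pair was very dim in every array, with only 1.22% and 1.79% of genes dimmer. The knockout arrays thus read as female cells and the wild-type arrays as male cells. Genotype and the sex of the cells cannot be told apart in these 4 arrays, for any gene reported here.

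Other facts of the series bear on every value. Klf7 itself read 6.59 and 6.18 in knockout, against 5.95 and 6.10 in wild type, and so was not lower in the libraries labelled knockout; a probe set outside the deleted part would check nothing. Over the 9 members the median absolute gap was 0.16 for the knockout pair and 0.18 for the wild-type pair, while pairs of 1 knockout and 1 wild-type array gave 0.12 to 0.33. Of 14 stem and progenitor markers measured, 11 were higher in knockout, against 45% of all genes, and 8 of them without overlap, against 14.5%, with a median difference of 0.21. Cd34, a sialomucin of progenitors, read 10.24 and 10.22 in knockout, against 9.65 and 9.57 in wild type (difference 0.62 ± 0.15, limma adjusted p = 0.945). Mecom, a stem cell factor gene, differed by -0.71 ± 0.25, and its other probe set by 0.54. The summed intensity of the 14 was 5847 and 6133 in knockout, against 4886 and 4581 in wild type. The gene of Sca-1, Ly6a, was not analysed here. Mature myeloid markers, 13 in number, summed to 4238 and 2222 in knockout, against 3256 and 3069 in wild type. Knockout replicate 1, the highest, was also the high array for Bcl11a and Ebf1. Knockout replicate 2 had the lowest sum, and its Bcl11a and Ebf1 values, 9.13 and 4.24, also lay above both wild-type arrays. Of 7 red cell and platelet markers, 6 were higher in knockout, 4 of them without overlap, against 14.5% of all genes. The part of these marker differences in the lymphoid factor values was not tested.

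Close relatives of the factors were measured for 10 of 11 genes on the list, and 7 were higher and 3 lower in knockout, with a median difference of 0.089. Ikzf5, counted among the lower ones at -0.11 ± 0.31, had a dimmer probe set that lay the other way, at 1.04 ± 0.30 (limma adjusted p = 0.945). Groups did not overlap in 4 of them with higher and 2 with lower knockout signal, against 14.5% and 18.6% of all genes, and 0 passed the test. Runx1, the Runt factor that blood stem cells need to arise, read 8.29 and 8.77 in knockout, against 8.15 and 8.01 in wild type, the opposite side from its relative Runx3. Its difference was 0.45 ± 0.22 (limma adjusted p = 0.949). Tcf7l2, the relative of Tcf7 and Lef1 best known from Wnt signalling in the gut, read 7.40 and 8.08 in knockout, against 7.31 and 6.98 in wild type (difference 0.60 ± 0.29). Its knockout replicate 2 was the high array.

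Cofactors and other binding partners of these proteins were measured for 20 of 20 genes, with 9 higher, 11 lower and a median difference of -0.028. Gatad2b, a subunit of the NuRD complex that Ikaros and BCL11 proteins bind, read 9.74 and 9.31 in knockout, against 8.85 and 8.41 in wild type. Both knockout arrays were higher, by at least 0.46, and the difference of 0.89 ± 0.25 did not pass (limma adjusted p = 0.945). Tle4, a Groucho co-repressor of Runt and TCF proteins, read 6.53 and 6.24 in knockout, against 5.46 and 5.98 in wild type (0.66 ± 0.25). Groups did not overlap in 6 of the 20, a share close to the 33.2% of all genes.

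Among genes that Ebf1 and Pax5 switch on in B cells, 6 of 17 measured were higher and 11 lower in knockout, with a median difference of -0.072, and 0 passed. Cd72, a B cell co-receptor, read 6.59 and 7.23 in knockout, against 5.95 and 5.75 in wild type (1.06 ± 0.26). Vpreb2, part of the surrogate light chain, differed by 0.31 ± 0.21. Related genes of the list, chosen after their values were seen, gave Vpreb3 at -0.35 and Igll1 at -0.36. Vpreb1 read 8.59 and 5.49 in knockout, against 5.57 and 5.35 in wild type, with knockout replicate 1 alone high. Without overlap were 2 of the 17 on the higher side and 3 on the lower side, near the shares of all genes.

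Genes of the T cell programme lay lower more often than higher, 16 against 5 of 21 measured, while 45% of all genes had a difference above 0. Their median difference was -0.14, against -0.026 over all genes. Some of these genes, Cd3e among them, are also on the list of mature T and NK cell markers, and every shared gene was lower in knockout. The counts of these lists are thus not separate observations. This list was not compared with genes of like signal. Without overlap were 2 with higher and 8 with lower knockout signal, against 14.5% and 18.6% of all genes. No member passed. Thy1, a surface glycoprotein of T cells, read 6.31 and 6.50 in knockout, against 6.73 and 7.05 in wild type, a difference of -0.48 ± 0.19 (limma adjusted p = 0.945). Lat, an adaptor of T cell receptor signalling, lay the other way, with 7.10 and 7.49 in knockout against 6.51 and 6.82 in wild type (0.62 ± 0.22).

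Early lymphoid genes divided into 4 higher and 11 lower of 15 measured, with a median difference of -0.072, and 5 did not overlap, at the 33.2% of all genes. Flt3, the receptor that marks lymphoid-primed progenitors, read 9.89 and 9.73 in knockout, against 9.49 and 9.17 in wild type (0.48 ± 0.19). Dntt, the terminal transferase gene, read 9.77 and 10.05 in knockout, against 9.49 and 9.65 in wild type (0.34 ± 0.18). These 2 genes were thus on the higher side while most of their list was on the lower side, and neither passed.

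E proteins and their Id inhibitors, which set the activity on which Ebf1 depends, had 4 higher and 3 lower of 7 measured, with a median difference of 0.032. Tcf12, the E protein HEB, differed by 0.29 ± 0.17 and Id4 by 0.10 ± 0.16, and these were the 2 of 7 without overlap, against 33.2% of all genes. Myeloid and erythroid factors, the counterpart set for the other blood lineages, had 5 higher and 13 lower of 18 measured. Their median difference was -0.045, close to the -0.044 of the lymphoid factors, and 6 of 18 did not overlap, at the 33.2% of all genes; a difference from the lymphoid factors was not tested. Egr1, an early response zinc finger gene, read 8.29 and 8.81 in knockout, against 9.44 and 9.45 in wild type (-0.89 ± 0.23). Gfi1b, which encodes a repressor protein needed for erythroid and platelet development, differed by -0.34 ± 0.22. No gene of either list passed.

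**Figure D4:**
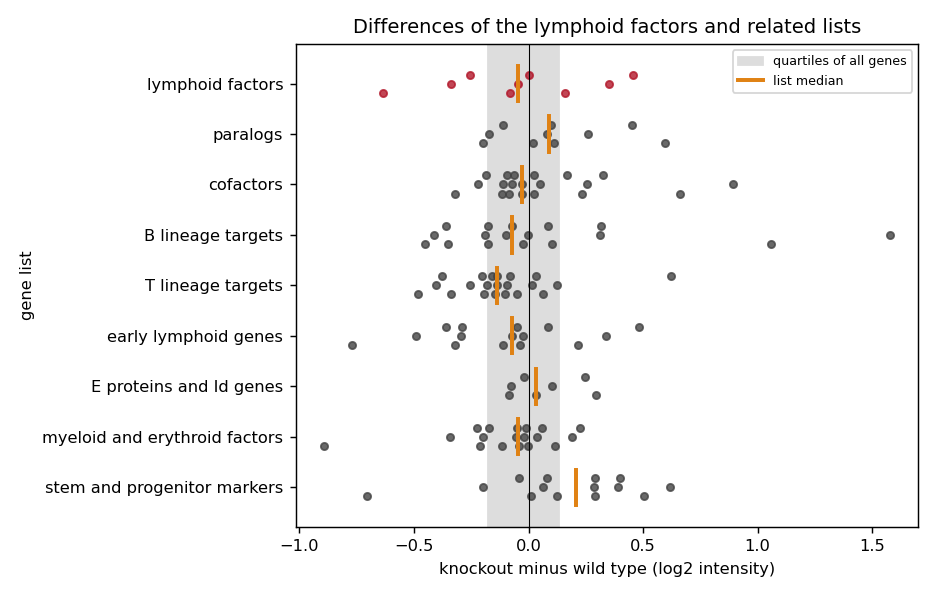
Differences of knockout minus wild type in log2 intensity for the lymphoid factors (red) and 8 related lists; each point is a gene, the orange bar is the list median and the grey band spans the quartiles of all genes (-0.18 to 0.13). The median of the stem and progenitor markers (0.21) lies outside the band, and those of the lymphoid factors and of the other lists lie within it.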

How the data were processed

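Expression was measured with Affymetrix arrays on RNA of sorted cells, amplified with the NuGen Ovation system per the labels' protocols. The deposited table gives 1 intensity per probe set and array, on a linear scale as its values show; the submitters' processing notes list Affymetrix Expression Console and RMA, whose settings are not given in the sources used here. Array medians lay between 51.0 and 52.3, so log2 was taken without further normalization. Of 35554 rows, the first 6615, taken to be controls because they precede the first annotated probe set, were left out. The platform annotation gave 1 symbol to 21789 probe sets. A current symbol, changed or not, was found by Entrez ID for 21698, and the brightest probe set stood for a gene. Detection calls were not used here, and the number of arrays limits precision.

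All 28939 probe sets were fitted at once in R 4.3.3 with limma 3.58.1 (lmFit, eBayes; knockout minus wild type; two-sided; Benjamini-Hochberg over all probe sets; threshold 0.05), and the fit was tested on simulated data: in 5 simulated comparisons of 28939 probe sets, each with 200 changed, a 2-fold change was called in 0%, a 4-fold change in 14.4% and a 16-fold change in 85.2%. Members and gene lists were chosen with earlier results of these data known, and some lists share genes. Besides Klf7 and the members, the text names of each list the genes past the threshold or else up to 2 with the largest absolute difference, brighter than the median gene and without overlap. Ikzf5, Nkg7, Vpreb1, Vpreb3, Igll1 and the Y-linked genes were named after their values were seen. Of lists used as mature cell checks, those for myeloid cells (6 higher, 7 lower) and for red cells and platelets (6 higher, 1 lower; Slc4a1 at 0.28 and Itga2b at 0.14) had 0 genes past the threshold. Of the 6 sex-linked transcripts, Xist passed (limma adjusted p = 0.0454). Alternatives were an offset of 32, quantile normalization, cyclic loess, a filter on dim probe sets, an intensity trend, the replicate number as a block, averaging the probe sets of each gene, the leading probe sets kept and each array left out.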

Additional observations from a re-analysis of the deposited data

How the results depend on the processing

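No lymphoid factor passed the threshold under any of the 12 alternatives, with limma adjusted p between 0.683 and 1. Of 106 values of single members under the alternatives, 100 kept their direction and 6 turned it, all of Ikzf1 or Pax5, whose differences lie near 0. Ikzf1 was -0.010 with quantile normalization again and -0.023 with cyclic loess, and ran from -0.15 to 0.16 with an array left out, while Pax5 ran from -0.18 to 0.089. The causes were not tested. The median difference of the members ran from -0.13 to -0.0012 with an array left out. Members without overlap numbered 6 of 9 in the alternatives that kept every array and member, and 5 of the 7 left by the filter on dim probe sets. With 1 array dropped they numbered 7 to 9 of 9, since fewer arrays make overlap harder. The share of all genes without overlap was not computed for any alternative. The 33.2% of all genes, found with every array, cannot be set beside counts with 1 array dropped. The count of all probe sets past the threshold, 1 as reported, was 0 with the offset of 32, quantile normalization again, the intensity trend and the leading probe sets kept, and 0 to 0 with an array left out. With the replicate number as a block it was also 0. The labels do not say that equal numbers mark a shared mouse or day, and deviations of same-numbered arrays correlated at 0.0288 across genes. Detection above background was not assessed, which limits the dim Ebf1 and Ikzf3 values.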
